A study of Mus musculus with 12 samples.

Results

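The genes described here are 49 mouse genes of the interferon response and of MHC class I antigen presentation, measured in liver RNA. They were chosen by symbol, as rows of the count table whose Ensembl gene ID carries that symbol in GENCODE. All 49 matched 1 row each, of 46078 genes in the table, and all 49 were among the 13054 genes with enough counts to be tested. Of these, 32 are mainly targets of type I interferon and 17 are mainly targets of interferon-gamma or belong to MHC class I presentation. The division follows the textbook use of the genes, and many respond to both interferons.

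The study asked how sleeve gastrectomy changes the liver apart from the weight loss it causes. C57BL/6 male mice (C57BL/6J in the methods of the study) with diet-induced obesity, raised on a high fat diet, underwent 1 of 3 treatments, with 4 mice sequenced in each group. VSG mice had a vertical sleeve gastrectomy, Sham-WM mice had sham surgery and then restricted food so that their weight followed that of the VSG mice, and Sham-Ad lib mice had sham surgery and unrestricted diet. All mice were 21 weeks old, and obesity before surgery, the high fat diet and an operation were common to the 3 groups, while VSG and Sham-WM mice had lost weight by the time of sampling. No library came from an unoperated mouse or from one kept on chow. Each library was made from poly(A) RNA of whole liver and held between 15122520 and 19384076 counts. Levels are given as CPM, the count of a gene scaled to a common library size. The 6 hepatocyte markers, Alb among them, summed to 77381 CPM or more in every library. In whole tissue, fewer cells of a type and less RNA per cell cannot be told apart.

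Interferons are secreted proteins that signal through receptors and their kinases to transcription factors. Type I interferon, through STAT2, IRF9 and their partners, switches on antiviral genes through a sequence called the interferon-stimulated response element (ISRE). Interferon-gamma, from T and NK cells, acts mainly at gamma-activated sites (GAS), and raises IRF1, guanylate-binding and immunity-related GTPases, and the genes that load peptides onto MHC class I. In the liver, hepatocytes, Kupffer cells (the resident macrophages) and endothelial cells can all respond.

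Promoter windows from RefSeq on GRCm38 (mm10), reaching 250 bases before to 50 bases after the start of transcription, were found for 37 members. In them 2 motifs were searched on both strands: the ISRE core GAAANNGAAA, whose reverse complement is TTTCNNTTTC, and the GAS core TTCNNNGAA, which reads the same on both strands. An ISRE match lay in the windows of 20 of the 37 members, 54.1%, against 3.99% of all 27025 genes with a window. GAS matches were found for 9 of the 37 members, 24.3%, against 9.55% of all genes. The windows held an ISRE match for 14 of 24 type I targets and 6 of 13 interferon-gamma and MHC class I genes. All 5 GTPases with a window had one, and 1 of the 7 MHC class I genes did. Among members higher in VSG than Sham-WM, 9 of 19 had an ISRE match, and among the other members 11 of 18 did. Both motifs were found for 5 members, and a match is a description of the letters, not a site of binding.

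The sequences of 7 members show the elements beside genes whose levels are given below. They are the 250 bases before the start, 5′ to 3′ on the strand of the gene, with ISRE and GAS matches in capitals. Ifit1 (chr19:34640639-34640888, plus strand), Ifit3 (chr19:34583279-34583528, plus strand), Isg15 (chr4:156200819-156201068, minus strand) and Oas1a (chr5:120907526-120907775, minus strand) were chosen as type I targets with 2 or 3 overlapping or neighbouring ISRE matches. Irf1 (chr11:53769764-53770013, plus strand) and Psmb8 (chr17:34197945-34198194, plus strand) have a GAS match, as does Oas1a beside its ISRE matches, and B2m (chr2:122147437-122147686, plus strand) has a single ISRE match.
Ifit1: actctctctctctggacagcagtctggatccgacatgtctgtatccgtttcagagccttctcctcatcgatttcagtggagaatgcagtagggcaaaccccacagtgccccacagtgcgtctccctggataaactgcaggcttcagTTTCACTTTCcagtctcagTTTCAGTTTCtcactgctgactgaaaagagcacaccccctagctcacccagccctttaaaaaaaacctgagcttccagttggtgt
Ifit3: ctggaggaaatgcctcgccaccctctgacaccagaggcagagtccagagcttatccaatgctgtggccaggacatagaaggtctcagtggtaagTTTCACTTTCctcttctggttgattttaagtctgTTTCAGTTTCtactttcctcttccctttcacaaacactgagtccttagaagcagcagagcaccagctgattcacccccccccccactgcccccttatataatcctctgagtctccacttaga
Isg15: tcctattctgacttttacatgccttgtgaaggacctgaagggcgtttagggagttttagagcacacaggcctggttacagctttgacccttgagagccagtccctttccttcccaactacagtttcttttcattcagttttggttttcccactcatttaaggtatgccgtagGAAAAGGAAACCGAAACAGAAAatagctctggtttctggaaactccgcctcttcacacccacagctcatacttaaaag
Oas1a: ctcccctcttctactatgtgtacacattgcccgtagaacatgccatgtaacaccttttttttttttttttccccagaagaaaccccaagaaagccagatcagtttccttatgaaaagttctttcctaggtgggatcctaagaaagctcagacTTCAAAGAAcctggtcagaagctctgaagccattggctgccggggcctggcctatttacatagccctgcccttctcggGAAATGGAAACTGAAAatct
Irf1: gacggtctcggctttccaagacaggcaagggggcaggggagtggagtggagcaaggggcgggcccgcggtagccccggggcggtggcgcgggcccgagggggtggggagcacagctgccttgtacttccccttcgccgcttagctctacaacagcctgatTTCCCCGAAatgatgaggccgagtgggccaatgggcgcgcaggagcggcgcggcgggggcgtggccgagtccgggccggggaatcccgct
Psmb8: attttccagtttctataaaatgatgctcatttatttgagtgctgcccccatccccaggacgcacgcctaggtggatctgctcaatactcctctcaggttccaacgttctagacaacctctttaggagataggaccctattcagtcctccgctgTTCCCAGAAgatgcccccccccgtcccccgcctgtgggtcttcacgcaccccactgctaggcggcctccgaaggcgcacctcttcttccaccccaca
B2m: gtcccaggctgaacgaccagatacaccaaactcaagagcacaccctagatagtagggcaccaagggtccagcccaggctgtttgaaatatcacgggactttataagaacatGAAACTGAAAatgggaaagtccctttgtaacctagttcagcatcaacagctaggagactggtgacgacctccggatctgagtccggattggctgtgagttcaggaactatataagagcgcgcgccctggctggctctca

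Libraries were grouped by the animal number that their names share with the sample titles, while a second field of the labels pairs them differently, and the libraries' index numbers run in a block per group, so a batch following them cannot be told apart from the treatment. With groups taken from that second field, edgeR called no gene of the table in any of the 3 comparisons at an adjusted p under 0.05, and 0 members passed an unadjusted p under 0.05 in VSG against Sham-WM, so every call given here rests on the grouping by animal number. Library 4F of Sham-Ad lib stood above the other 3 in the summed level of 10 Kupffer cell markers, at 581 CPM against 180 to 242 CPM. In the order used below, the values of a gene are those of libraries 3F, 4F, 6F and 10F (Sham-Ad lib), 2F, 9F, 15F and 16F (Sham-WM), and 1F, 8F, 11F and 18F (VSG).

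Between the 2 weight-matched groups, VSG livers had higher levels of 23 of the 49 genes than Sham-WM livers, and none was lower, in edgeR's quasi-likelihood test with an adjusted p under 0.05. Of all tested genes, 15.0% were called higher and 11.9% lower, so that the 46.9% of members called higher exceeded the share over the table. The median log2 fold change of the members was 0.46, against 0.03 over all genes tested, and 41 of 49 members had a positive value. The lowest VSG library lay above the highest Sham-WM library for 15 members, whereas 14.3% of all genes did so. The calls fell from 23 to 14 without Sham-WM library 15F and to 11 without 16F, when 16.8% and 16.5% of all genes were called in either direction, against 26.9% with all libraries. With 2 RUVs factors of unwanted variation, Usp18 and Tap1 alone of the 49 were called, when 3.97% of all genes were, so the members' share was then close to that of the table. Of the 23 calls, 10 were kept whichever single library was left out (Ifit3, Isg15, Xaf1, Oas1a, Oas1g, Oas2, Irf7, Usp18, Tap1 and Psmb9), and 13 were lost without at least 1 library. Stat2 was called lower without 4F, without 8F, by DESeq2 and with 2 RUVr factors, and Eif2ak2 without 8F and with RUVr, which also called Cmpk2 lower, and Igtp was called lower without 9F.

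In the comparison of VSG with Sham-Ad lib, edgeR's test called 0 of the 49 genes at an adjusted p under 0.05, when 0.751% of all genes were called. At an unadjusted p under 0.05 there were 12 members, and 24.1% of all genes passed that level. DESeq2 called 4 members higher (Oas1a, Oas1g, Irf7 and H2-D1) and 8.42% of all the genes it tested. Values were above 0 for 45 of the 49 genes, with a median log2 fold change of 0.30, against 53.2% of all genes and a median of 0.03. A single member, Oasl1, a member of the OAS family, had all 4 VSG libraries above all 4 Sham-Ad lib libraries, which 4.87% of all genes had. Without 4F, 6 members were called higher (Trim30a, Oas1a, Oas1g, Oas2, Oas3 and Irf7), when 6.82% of all genes were called. Without 18F, Oas1a, Oas1g and Irf7 were, 3 of 49 when 8.2% of all genes were called.

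Few members were called between Sham-WM and Sham-Ad lib, and most of their values were below 0. Sham-WM was lower than Sham-Ad lib in 3 of the 49 genes, Ifit3, Usp18 and Tap1, and higher in none, against 3.45% of all genes called lower and 3.53% called higher. Of the 3, Tap1 was called whichever library was left out, while Ifit3 and Usp18 were each lost without at least 1 library. The median log2 fold change was -0.23, against 0.00 over all genes, and 38 of 49 members were below 0. All 4 Sham-WM libraries lay below all 4 Sham-Ad lib libraries for 8 of the 49 members, whereas 8.40% of all genes did so. Those members were Ifit3, Ifit3b, Ifih1, Usp18, Gbp7, Iigp1, Tap1 and Psmb9. The comparisons of VSG and of Sham-WM with Sham-Ad lib share the same 4 control libraries.

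**Figure D1:**
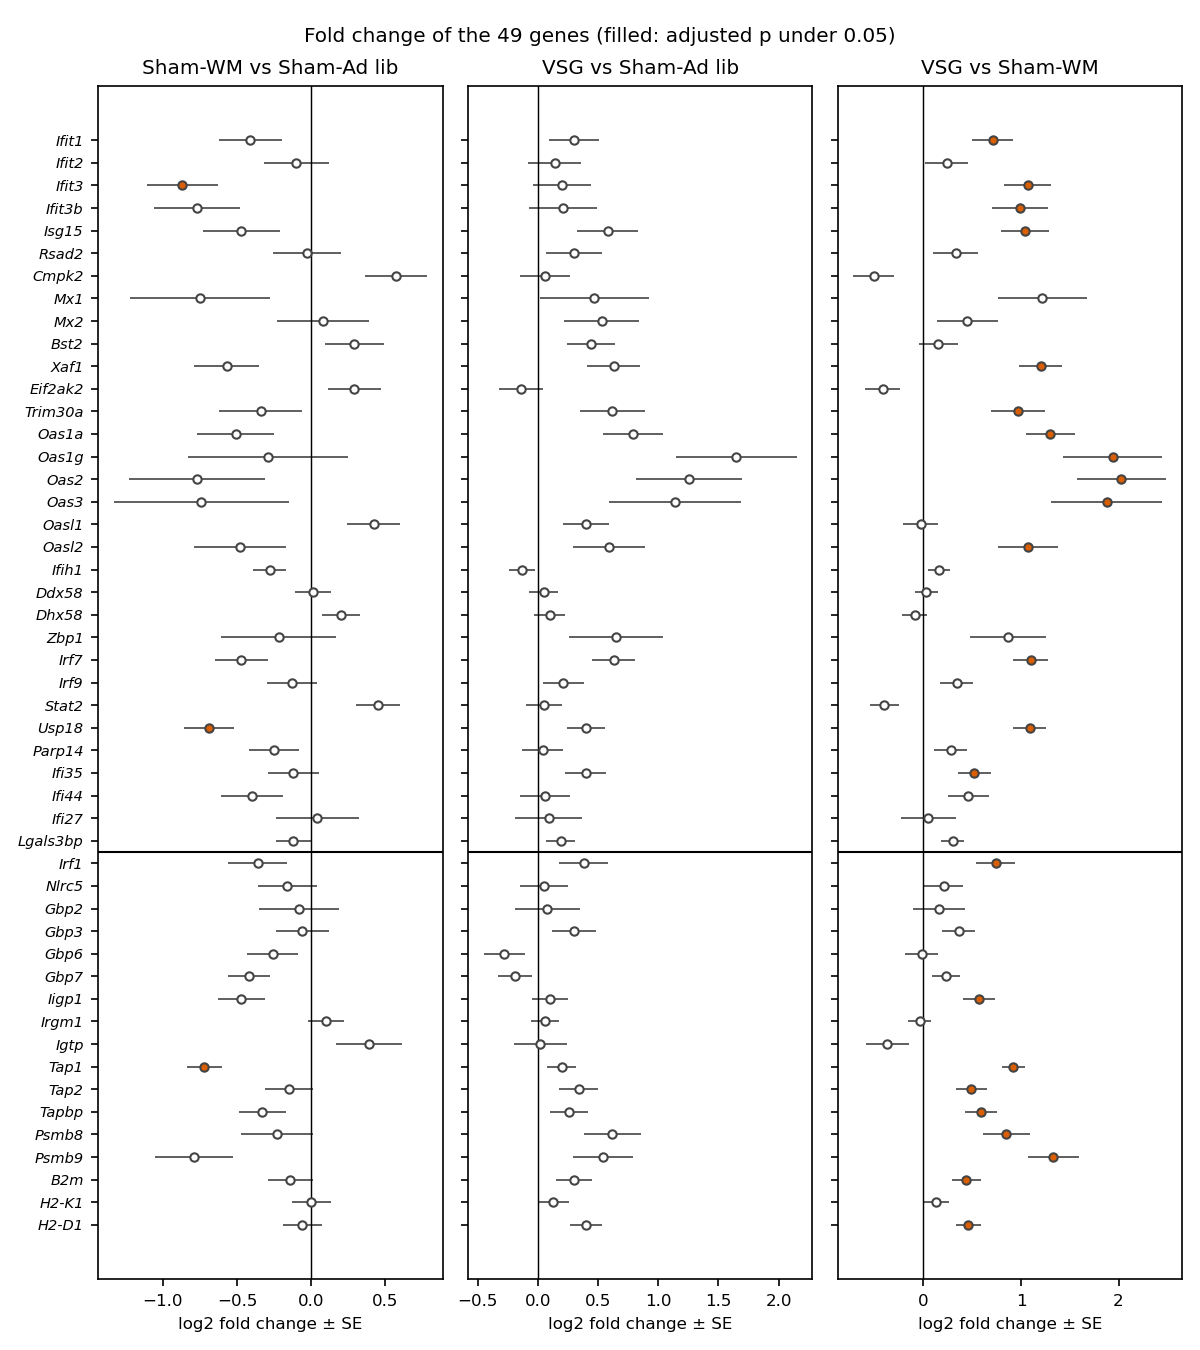
Log2 fold change with its standard error for each of the 49 genes in the 3 comparisons, from edgeR's fit of 12 libraries, with type I targets above the line and interferon-gamma and MHC class I genes below it, and filled points passed an adjusted p under 0.05. There are 3 filled points for Sham-WM against Sham-Ad lib, none for VSG against Sham-Ad lib and 23 for VSG against Sham-WM.

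**Figure D2:**
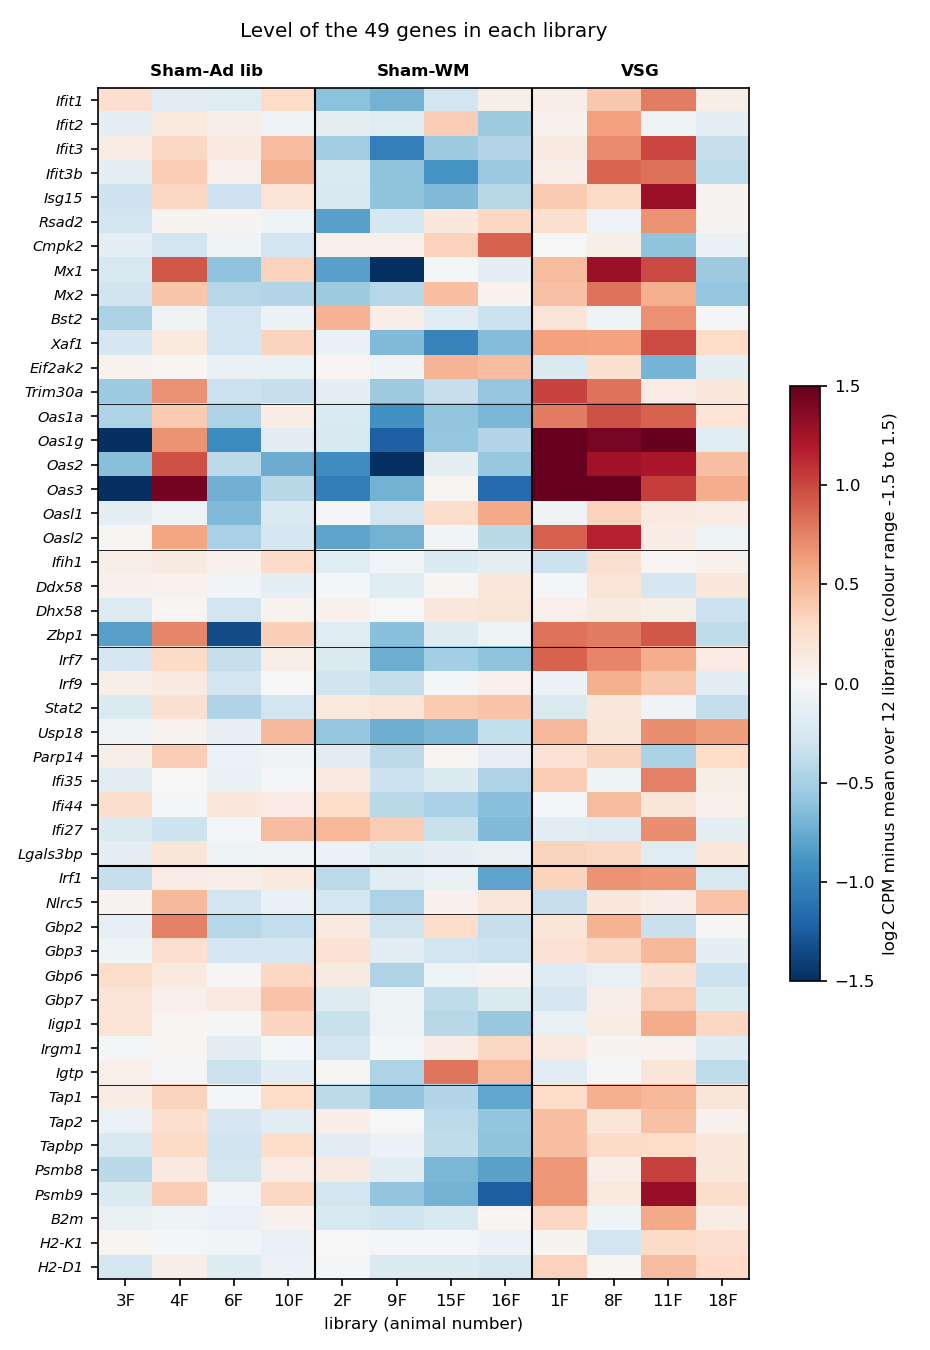
Log2 CPM of each member in each of the 12 libraries, less its mean over the 12, with groups in columns and roles in rows, where red is above and blue below the mean. Library 11F is the highest of the 12 for 17 members and 18F is the lowest VSG library for 26 of 49.

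Among the IFIT proteins and small antiviral effectors, 6 of 13 genes rose in VSG against Sham-WM, 46.2% against 15.0% of all genes. Ifit1, which binds foreign RNA caps, had 11.8, 8.85, 8.71 and 12 CPM in Sham-Ad lib, 6.47, 6.09, 8.11 and 10.5 CPM in Sham-WM and 10.6, 13.1, 16.9 and 10.5 CPM in VSG. The VSG values only just cleared the Sham-WM values, and the log2 fold change was 0.71 ± 0.21 (adjusted p = 0.024). Ifit3, its partner, had 13.2, 15.1, 13.4 and 16.9 CPM in Sham-Ad lib, 8.51, 5.99, 8.47 and 9.01 CPM in Sham-WM and 13.4, 20, 24.4 and 9.61 CPM in VSG. It was lower in Sham-WM than in Sham-Ad lib, at -0.87 ± 0.24 (adjusted p = 0.046), a call that was lost when any 1 of 8 of the 12 libraries was left out. Ifit3 was higher in VSG than in Sham-WM, at 1.07 ± 0.24 (adjusted p = 0.0073). Ifit3b, a near-identical copy of Ifit3, rose too, at 0.99 ± 0.29 (adjusted p = 0.0245), and reads may be split between the 2 genes.

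Isg15, a ubiquitin-like modifier and one of the most strongly induced interferon targets, had 6.81, 10.5, 6.82 and 9.79 CPM in Sham-Ad lib, 7.19, 5.58, 5.36 and 6.36 CPM in Sham-WM and 11.1, 10.3, 20.7 and 8.7 CPM in VSG. Library 11F was the highest, at 20.7 CPM, and the fold change against Sham-WM was 1.04 ± 0.25 (adjusted p = 0.0107) on the log2 scale. Xaf1, a regulator of apoptosis, had 4.91, 6.44, 4.76 and 7.34 CPM in Sham-Ad lib, 5.45, 3.69, 2.91 and 3.71 CPM in Sham-WM and 8.96, 8.88, 11.5 and 7.05 CPM in VSG. VSG and Sham-WM did not overlap, with a log2 fold change of 1.20 ± 0.22 (adjusted p = 0.00281). Trim30a, a ubiquitin ligase, had 5.13, 12, 6 and 5.9 CPM in Sham-Ad lib, 6.83, 5.17, 5.87 and 5.01 CPM in Sham-WM and 15.1, 13.1, 8.13 and 8.36 CPM in VSG. It rose against Sham-WM by 0.97 ± 0.28 (adjusted p = 0.0227), while library 4F, at 12 CPM, reached the VSG values.

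The other 7 effectors did not pass the test. Bst2 (tetherin, which holds viruses at the cell surface), Rsad2 (viperin), Mx1, Mx2 and Ifit2 had values above 0 against Sham-WM, from 0.15 for Bst2 to 1.22 for Mx1. Cmpk2, a nucleotide kinase, and Eif2ak2, the RNA-activated kinase PKR, had values below 0, at -0.51 ± 0.21 (adjusted p = 0.0886) and -0.42 ± 0.18 (adjusted p = 0.0929). Mx1 had as few as 6 counts in a library.

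OAS proteins sense double-stranded RNA, and most make the signal that activates RNase L. In this family 5 of 6 genes rose in VSG against Sham-WM, 83.3% against 15.0% of all genes. The family had the highest median log2 fold change of the roles, 1.59. Oas1a had 2.23, 4.02, 2.22 and 3.33 CPM in Sham-Ad lib, 2.65, 1.64, 2.04 and 1.91 CPM in Sham-WM and 5.26, 5.97, 5.65 and 3.53 CPM in VSG. Groups VSG and Sham-WM did not overlap, with a log2 fold change of 1.30 ± 0.25 (adjusted p = 0.00353). Oas1g, a close copy of Oas1a, had 0.223, 1.34, 0.433 and 0.753 CPM in Sham-Ad lib, 0.713, 0.358, 0.561 and 0.619 CPM in Sham-WM and 2.99, 2.25, 2.79 and 0.739 CPM in VSG, which rests on as few as 4 counts, and it rose by 1.94 ± 0.51 (adjusted p = 0.0149).

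Oas2 had 1.56, 4.67, 1.84 and 1.44 CPM in Sham-Ad lib, 1.27, 0.512, 2.19 and 1.63 CPM in Sham-WM and 8.25, 5.77, 5.65 and 3.3 CPM in VSG. Its fold against Sham-WM was 4.08, or 2.03 ± 0.46 (adjusted p = 0.00716) on the log2 scale, and 4F was again the highest Sham-Ad lib library. Oasl2 had 4.91, 7.3, 3.46 and 4.08 CPM in Sham-Ad lib, 2.8, 2.97, 4.74 and 3.66 CPM in Sham-WM and 9.08, 10.8, 5.27 and 4.61 CPM in VSG. The log2 fold change was 1.07 ± 0.31 (adjusted p = 0.0227), although the lowest VSG library overlapped the highest of Sham-WM. Oas3 rose by 1.88 ± 0.57 (adjusted p = 0.029) with as few as 5 counts in a library, and Oasl1 had a log2 fold change of -0.03 ± 0.18 (adjusted p = 0.93).

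The 4 sensors of RNA and DNA, Ifih1 (MDA5), Ddx58 (RIG-I), Dhx58 (LGP2) and Zbp1, did not pass the test in any comparison. Zbp1, a sensor of Z-form nucleic acid, had the widest difference from Sham-WM. It had 4.41, 12.9, 3.08 and 9.98 CPM in Sham-Ad lib, 6.88, 5.02, 6.78 and 7.43 CPM in Sham-WM and 13.7, 13.3, 14.8 and 5.97 CPM in VSG. The log2 fold change was 0.87 ± 0.39 (adjusted p = 0.111). The other 3 sensors lay between -0.09 for Dhx58 and 0.16 for Ifih1.

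The transcription factors of the type I pathway did not move alike. Irf7, the factor that amplifies type I interferon production, had 26.1, 38, 24.5 and 33.4 CPM in Sham-Ad lib, 26.8, 18.7, 21.9 and 20.6 CPM in Sham-WM and 57.4, 51.8, 45.6 and 34 CPM in VSG. All VSG libraries lay above all Sham-WM libraries, at 1.10 ± 0.18 (adjusted p = 0.00173). Usp18, which removes ISG15 and damps signalling at the type I receptor, had 8.09, 8.69, 7.68 and 11.7 CPM in Sham-Ad lib, 5.61, 5.02, 5.25 and 6.47 CPM in Sham-WM and 11.7, 9.45, 13.6 and 12.9 CPM in VSG. It fell after food restriction relative to Sham-Ad lib, at -0.69 ± 0.17 (adjusted p = 0.0253), a call lost without 10F, 15F, 2F or 9F, and was higher in VSG than in Sham-WM, at 1.09 ± 0.17 (adjusted p = 0.00123).

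Stat2, a transcription factor of type I signalling, ran the other way in value. It had 47.4, 64, 40 and 44.9 CPM in Sham-Ad lib, 60.2, 62.6, 71.6 and 73.1 CPM in Sham-WM and 47, 61.2, 52.6 and 42.7 CPM in VSG. The log2 fold change of VSG against Sham-WM was -0.40 ± 0.15 (adjusted p = 0.0678), and that of Sham-WM against Sham-Ad lib was 0.45 ± 0.15 (adjusted p = 0.0974). Irf9, which binds DNA together with STAT2, had 32.9, 33.9, 25.2 and 30.7 CPM in Sham-Ad lib, 25, 24, 30.3 and 32.6 CPM in Sham-WM and 29, 44.5, 40.9 and 27.5 CPM in VSG. Groups overlapped, and its value against Sham-WM was 0.34 ± 0.17 (adjusted p = 0.144). Irf9 shares 123 exon bases with Rnf31 on the same strand.

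Among the other type I targets, 1 of 5 was called higher in VSG than in Sham-WM, 20% and so near the 15.0% of all genes. Ifi35, an interferon-induced protein, had 15.8, 17.7, 16.6 and 17.6 CPM in Sham-Ad lib, 19.5, 14.3, 15.4 and 12.9 CPM in Sham-WM and 23.2, 17.1, 30.2 and 18.9 CPM in VSG. Its log2 fold change was 0.52 ± 0.17 (adjusted p = 0.0393), 11F was the highest library, and the call was lost when any 1 of 7 of the 12 libraries was left out. The remaining 4, Parp14, Ifi44, Ifi27 and Lgals3bp, had values between 0.05 and 0.46 and did not pass.

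**Figure D3:**
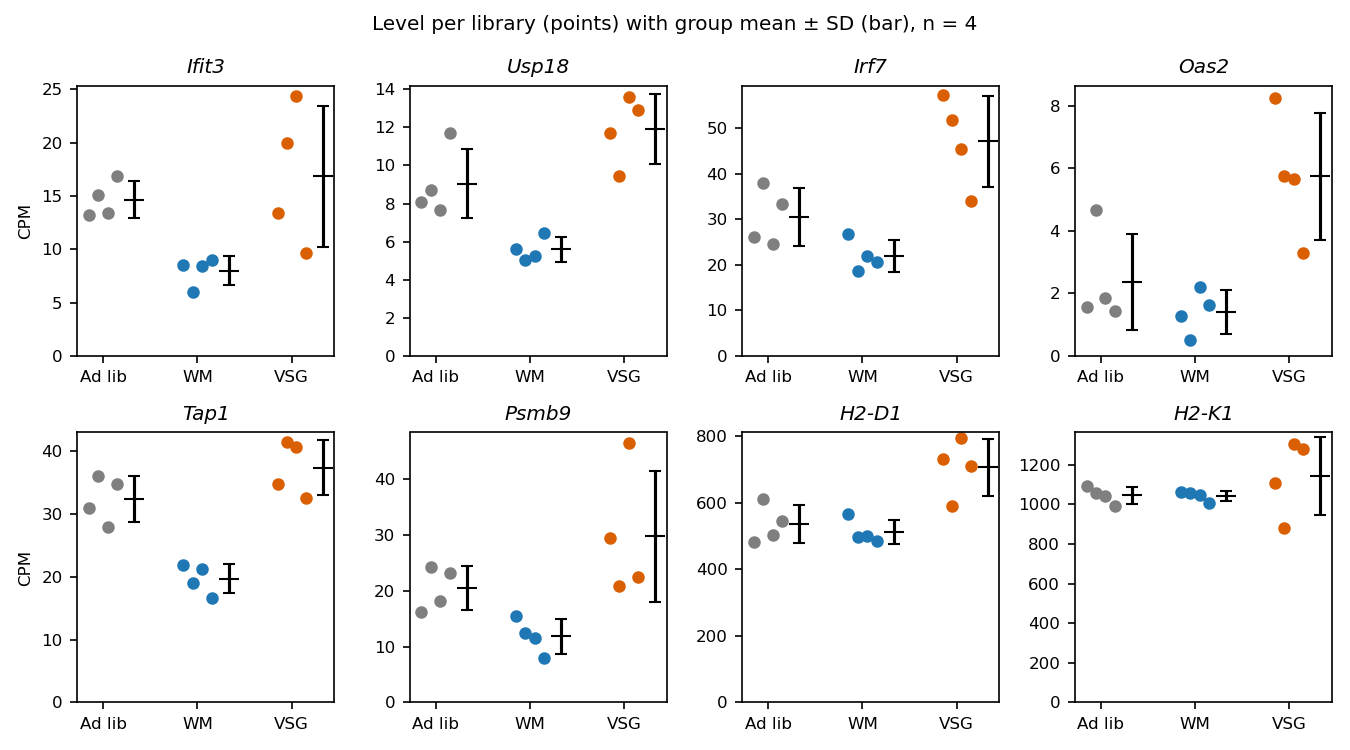
CPM of 8 members in each library, on linear axes from 0, by group, with the group mean ± SD of 4 libraries beside the points. Ifit3, Usp18 and Tap1 are low in all 4 Sham-WM libraries, whereas the H2-K1 values of the 3 groups overlap.

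When 15.0% of all genes were called higher in VSG than in Sham-WM, 9 of the 17 interferon-gamma and MHC class I genes were (52.9%), as were 14 of the 32 type I targets (43.8%). Of the 9, 7 were among the 8 MHC class I and peptide-loading genes (87.5%), 1 was among the 7 GTPases (14.3%) and 1 was Irf1. The median log2 fold changes of the 2 lists were 0.44 and 0.49, their medians against Sham-Ad lib were 0.20 and 0.35 in VSG and -0.16 and -0.26 in Sham-WM, and the difference between the lists was not tested. Without 4F the Sham-WM medians were -0.14 and -0.07 in the same order, so that the type I targets no longer had the lower value, and without 9F both were -0.15. The Sham-WM median of the interferon-gamma and MHC class I genes was -0.26 without 2F or 6F, and the VSG median of the type I targets against Sham-Ad lib was 0.22 without 11F. Irf1, the factor that drives many interferon-gamma targets, had 22.3, 30.9, 30.2 and 31.3 CPM in Sham-Ad lib, 21.6, 25.2, 26.4 and 16.3 CPM in Sham-WM and 35.6, 45.2, 44.4 and 24 CPM in VSG. It rose by 0.74 ± 0.20 (adjusted p = 0.0189), and 18F, the lowest VSG library at 24 CPM, lay within the Sham-WM range. Nlrc5, the activator of MHC class I genes, had a log2 fold change of 0.21 ± 0.20 (adjusted p = 0.441).

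Of 7 GTPases that attack intracellular microbes, 1 was called higher in VSG than in Sham-WM, 14.3% against 15.0% of all genes. Iigp1, an immunity-related GTPase, had 391, 346, 336 and 425 CPM in Sham-Ad lib, 270, 323, 255 and 230 CPM in Sham-WM and 314, 367, 500 and 423 CPM in VSG. Per kilobase of exon it was the most abundant of the 7 GTPases, and the log2 fold change against Sham-WM was 0.57 ± 0.16 (adjusted p = 0.0175). The guanylate-binding proteins Gbp2, Gbp3, Gbp6 and Gbp7 and the GTPases Irgm1 and Igtp lay between -0.37 for Igtp and 0.36 for Gbp3. Gbp6 shares 1726 exon bases with Gm43302, Gbp7 637 with Gm43802 and Igtp 162 with Irgm2, on the same strand, so their counts are uncertain.

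The MHC class I and peptide-loading genes included 7 of 8 that rose in VSG against Sham-WM, 87.5% against 15.0% of all genes, with a median log2 fold change of 0.54. Tap1, a subunit of the pump that carries peptides into the endoplasmic reticulum, had 31, 36.1, 28 and 34.7 CPM in Sham-Ad lib, 21.8, 19, 21.2 and 16.7 CPM in Sham-WM and 34.7, 41.5, 40.6 and 32.6 CPM in VSG. The values of the groups did not overlap between Sham-WM and the other groups. Tap1 was lower in Sham-WM than in Sham-Ad lib, at -0.72 ± 0.12 (adjusted p = 0.00476), and higher in VSG than in Sham-WM, at 0.92 ± 0.12 (adjusted p = 0.000611). It was called in both comparisons whichever library was left out. Tapbp, or tapasin, which holds MHC class I at the pump, had 70.9, 102, 67.5 and 100 CPM in Sham-Ad lib, 74.7, 78.4, 64 and 54.6 CPM in Sham-WM and 113.7, 101, 100 and 92.7 CPM in VSG. Its log2 fold change was 0.59 ± 0.16 (adjusted p = 0.0164), and it shares 149 exon bases with Zbtb22 on the same strand.

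Psmb8 and Psmb9 encode inducible subunits of the immunoproteasome, which makes peptides for MHC class I. Psmb9 had 16.3, 24.3, 18.2 and 23.3 CPM in Sham-Ad lib, 15.5, 12.4, 11.5 and 7.94 CPM in Sham-WM and 29.5, 20.8, 46.5 and 22.5 CPM in VSG. It had the highest log2 fold change of the 17, 1.33 ± 0.26 (adjusted p = 0.00346). Psmb8 had 17.7, 25.8, 19.4 and 25.5 CPM in Sham-Ad lib, 25.9, 21.1, 14.6 and 13.5 CPM in Sham-WM and 36.8, 25.2, 47.7 and 26.3 CPM in VSG, and rose by 0.85 ± 0.24 (adjusted p = 0.0212) although the groups overlapped. Tap1 and Psmb9 are neighbours on opposite strands of chromosome 17, with RefSeq starts at 34187556 and 34187330, 226 bases apart, and they share 212 exon bases, while whether the counting used strand is not given in the sources used here. In all, 13 of the 49 members share exon bases with a gene of the table on the opposite strand. Tap2, the other subunit of the pump, rose by 0.49 ± 0.16 (adjusted p = 0.0416), a call lost when any 1 of 7 of the 12 libraries was left out.

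B2m, the light chain of every MHC class I molecule, had 1576, 1622, 1604 and 1781 CPM in Sham-Ad lib, 1432, 1382, 1447 and 1726 CPM in Sham-WM and 2102, 1630, 2527 and 1838 CPM in VSG. It rose by 0.44 ± 0.15 (adjusted p = 0.0461), a call that was lost when any 1 of 10 of the 12 libraries was left out. H2-D1, a heavy chain, had 482, 612, 503 and 544 CPM in Sham-Ad lib, 566, 497, 499 and 485 CPM in Sham-WM and 730, 590, 795 and 709 CPM in VSG. The groups VSG and Sham-WM did not overlap, and the value was 0.46 ± 0.13 (adjusted p = 0.0175). H2-K1, the other classical heavy chain, had 1093, 1057, 1042 and 989 CPM in Sham-Ad lib, 1063, 1057, 1047 and 1006 CPM in Sham-WM and 1106, 878, 1306 and 1279 CPM in VSG. It showed 0.13 ± 0.13 (adjusted p = 0.489) on the same scale, with the VSG libraries on both sides of the rest, and reads of these similar chains may be shared.

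Levels can be set beside each other per kilobase of exon. In Sham-Ad lib livers, B2m had 1914 CPM per kilobase, H2-K1 had 356 and H2-D1 had 208, followed by Bst2 with 95 and Iigp1 with 64.3. Isg15 had 11.2, Irf7 had 8.07, Tap1 had 5.92 and Oas3 had 0.189 CPM per kilobase. The 8 MHC class I genes took 3300 to 3516 CPM of the 4363 to 4784 CPM of all 49 genes in Sham-Ad lib. In VSG they summed to between 3310 and 4890 CPM and in Sham-WM to between 3088 and 3323 CPM.

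The genes around the members were read from lists of 127 further genes, of which 20 had too few counts to be tested. Against Sham-WM, 39 of those tested were higher in VSG, 36.4% against 15.0% of all genes. A further 6 were lower, when 11.9% of all genes were called lower. Interferon ligands were at or near the limit of detection at this depth. Of the 14 ligand genes, 8, Ifnb1 and Ifna4 among them, had 0 counts in all 12 libraries, where 3 counts correspond to 0.152 to 0.226 CPM. Ifng had between 0 and 2 counts in a library and Ifnk, a type I interferon of skin, between 0 and 4. Il18, a cytokine that prompts interferon-gamma release, had 9.99, 10.9, 10.4 and 10.9 CPM in Sham-Ad lib, 9.43, 9.32, 8.87 and 9.91 CPM in Sham-WM and 15.2, 13.6, 17.4 and 13 CPM in VSG. It rose by 0.66 ± 0.11 (adjusted p = 0.00216) against Sham-WM.

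Among the receptors, values differed between chains. Of 9 receptor and signalling genes tested, 4 rose against Sham-WM, 44.4% against 15.0% of all genes. Ifngr2, a chain of the interferon-gamma receptor, had 21.5, 29.3, 24.1 and 29.8 CPM in Sham-Ad lib, 14, 14.7, 13.7 and 13.5 CPM in Sham-WM and 41.4, 34.6, 27.2 and 29.3 CPM in VSG. It was lower in Sham-WM than in Sham-Ad lib, at -0.91 ± 0.14 (adjusted p = 0.00314), and higher in VSG than in Sham-WM, at 1.25 ± 0.14 (adjusted p = 0.000197). Ifngr1, the other chain, rose by 0.91 ± 0.21 (adjusted p = 0.00833), Ifnar2 by 0.77 ± 0.11 (adjusted p = 0.00107) and Il10rb by 1.06 ± 0.23 (adjusted p = 0.00612). Ifnar1, the other type I chain, had -0.02 ± 0.11 (adjusted p = 0.905).

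Of 36 further type I targets, 17 were higher (47.2%, against 15.0% of all genes) and 1 (Helz2, chosen after its value was seen) was lower in VSG than in Sham-WM. Slfn2, of the Schlafen family, had 2.62, 8.16, 2.49 and 2.7 CPM in Sham-Ad lib, 2.55, 1.79, 2.5 and 2.08 CPM in Sham-WM and 20.9, 12.7, 12.1 and 7.62 CPM in VSG, a log2 fold change of 2.57 ± 0.40 (adjusted p = 0.00132). Epsti1 rose against both controls, by 1.65 ± 0.34 (adjusted p = 0.0466) against Sham-Ad lib and by 2.02 ± 0.34 (adjusted p = 0.00195) against Sham-WM. Slfn8 rose by 1.35 ± 0.26 (adjusted p = 0.00312) against Sham-WM.

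Of 15 further interferon-gamma targets, 4 rose (26.7%, against 15.0% of all genes), Cybb, Gbp8, Cd274 and Icam1, the last pair named after their values were seen. The chemokines Cxcl9 and Cxcl10, hallmark targets of interferon-gamma, had 0.30 ± 0.33 (adjusted p = 0.519) and 0.77 ± 0.34 (adjusted p = 0.11). Cybb, an oxidase subunit of phagocytes, rose by 2.35 ± 0.43 (adjusted p = 0.00267) and Gbp8 by 2.16 ± 0.41 (adjusted p = 0.00293). Gbp10 was lower in Sham-WM than in Sham-Ad lib, at -1.41 ± 0.28 (adjusted p = 0.00954). Of 20 further MHC class I genes, 4 were higher (Psmb10, H2-T22, H2-T23 and H2-M3) and 4 lower (H2-Q6, Rfxank, Erap1 and Canx) in VSG than in Sham-WM, all but H2-Q6 and Rfxank named after their values were seen. The 20% called higher was near the 15.0% of all genes, and 11.9% of all genes were called lower. H2-Q6, a non-classical chain, had 28.3, 19.2, 19 and 28 CPM in Sham-Ad lib, 46.8, 47.9, 45.2 and 38.3 CPM in Sham-WM and 18.5, 20.5, 28.3 and 25.3 CPM in VSG. It was higher in Sham-WM than in Sham-Ad lib, at 0.91 ± 0.17 (adjusted p = 0.00692), and lower in VSG than in Sham-WM, at -0.95 ± 0.17 (adjusted p = 0.00235). H2-Q7 was higher in Sham-WM, at 0.81 ± 0.18 (adjusted p = 0.0163), as was Rfxank, at 1.03 ± 0.16 (adjusted p = 0.00276).

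Of 15 tested genes of sensing and induction 5 were higher and 1 lower in VSG than in Sham-WM, and of 10 tested genes of restraint and other interferon regulatory factors 4 were higher. The shares called higher were 33.3% and 40%, against 15.0% of all genes. The lower gene was Mavs, the adaptor of the RNA sensors, at -0.54 ± 0.16 (adjusted p = 0.0273), named after its value was seen. Unc93b1, the chaperone of endosomal Toll-like receptors, rose by 0.84 ± 0.17 (adjusted p = 0.0469) against Sham-Ad lib and by 1.04 ± 0.17 (adjusted p = 0.00174) against Sham-WM. With Epsti1 it made up the 2 further genes called in VSG against Sham-Ad lib, when 0.751% of all genes were called. No further gene was called there when any 1 library other than 4F or 18F was left out, whereas 20 were called without 4F and 25 without 18F, when 6.82% and 8.2% of all genes were. Myd88, their adaptor, rose by 0.95 ± 0.19 (adjusted p = 0.00438) and Irf5 by 1.23 ± 0.22 (adjusted p = 0.00232) against Sham-WM. Irf8, a factor of macrophages and dendritic cells, rose by 1.5 ± 0.28 (adjusted p = 0.00281) and the phosphatase Ptpn6 by 0.80 ± 0.18 (adjusted p = 0.00664). Irf2, which competes with IRF1, was lower in Sham-WM than in Sham-Ad lib, at -0.69 ± 0.16 (adjusted p = 0.0223). It was higher in VSG than in Sham-WM, at 0.62 ± 0.16 (adjusted p = 0.0151), and had -0.07 ± 0.16 (adjusted p = 0.823) in VSG against Sham-Ad lib. Socs1, the inhibitor of the receptors' kinases, had between 0.102 and 0.597 CPM and was not tested.

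Markers of immune cells moved with the same contrast. All 10 Kupffer cell markers were higher in VSG than in Sham-WM, among them Clec4f, with a log2 fold change of 1.63, and Marco, with 3.63. Their summed level was 180 to 581 CPM in Sham-Ad lib, 163 to 272 CPM in Sham-WM and 606 to 1684 CPM in VSG, so VSG lay above every other library. The 5 tested neutrophil markers of 7 were all higher, with a sum of 1.3 to 16.3 CPM in Sham-Ad lib, 2.66 to 3.72 CPM in Sham-WM and 22.3 to 639 CPM in VSG. Ly6g, which was not tested, was at 0 in every sham library and in VSG library 11F, with 2.63, 0.766 and 0.0569 CPM in 1F, 8F and 18F. Of 8 markers of monocytes and recruited macrophages 4 rose, of 7 tested markers of B and plasma cells 5 did, and of 5 tested T and NK cell markers 3 did. Of all genes, 15.0% were called higher. T and NK cell markers summed to 3.62 to 7.78 CPM in Sham-Ad lib, 3.42 to 7.59 CPM in Sham-WM and 7.01 to 14.2 CPM in VSG. Of the 5 tested, Cd4 alone had a value below 0 against Sham-WM, at -0.59 ± 0.46 (adjusted p = 0.353). Siglech, which defines plasmacytoid dendritic cells, had between 1 and 13 counts. The 6 markers of those cells summed to 0.949 to 6.55 CPM in Sham-Ad lib, 0.461 to 2.4 CPM in Sham-WM and 3.41 to 15 CPM in VSG, and Ly6d, the 1 of them with enough counts to be tested, rose by 3.33 ± 0.78 (adjusted p = 0.00903) against Sham-WM. Ly6d alone supplied 13.9 of the 15 CPM of library 1F and 5.21 of the 6.55 CPM of library 4F. Siglech averaged 0.406 CPM in VSG, against 0.355 CPM for Sham-WM and 0.48 CPM for Sham-Ad lib. The means of Klk1 and Pacsin1 were not highest in VSG either, while those of Cox6a2 and Ccr9 were. The part of the immune cells in the members' values was not tested.

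**Figure D4:**
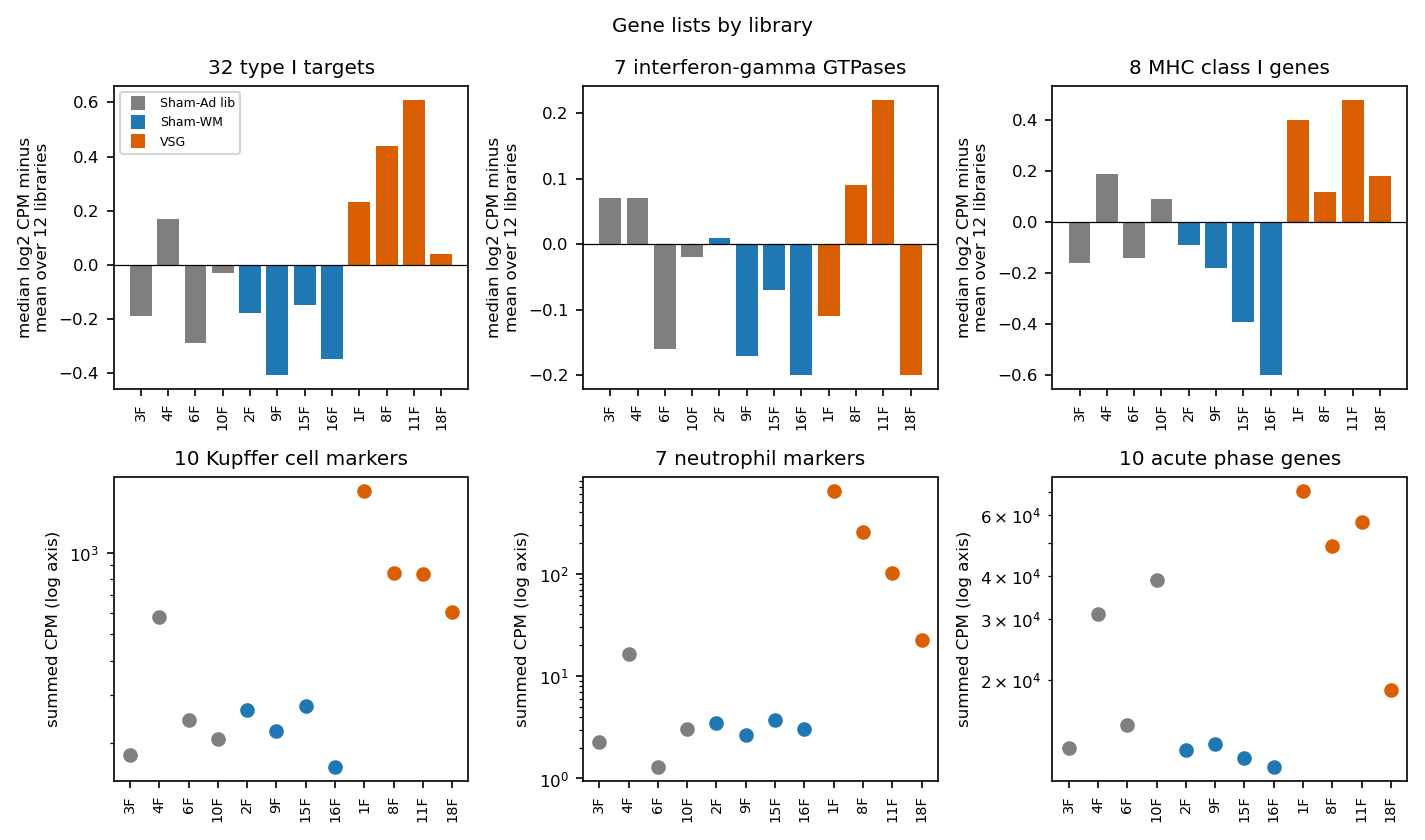
Upper row, median over the genes of a list of log2 CPM less the mean over 12 libraries, in each library. Lower row, summed CPM of marker lists on log axes, in the same libraries. Kupffer cell markers are highest in 1F (1684 CPM), whereas the type I targets and the MHC class I genes are highest in 11F (0.61 and 0.48).

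The order of the VSG libraries differed between lists and, for some lists, between summed level and median deviation. Kupffer cell markers were highest in 1F, with 1684 CPM, and reached 845 in 8F, 837 in 11F and 606 in 18F. The median deviation of the type I targets from their mean over 12 libraries, on the log2 scale, was 0.61 in 11F, 0.44 in 8F, 0.23 in 1F and 0.04 in 18F. Within them, the OAS family had 1.23 in 1F, 1.18 in 8F, 0.93 in 11F and 0.15 in 18F. In summed level the OAS family had 39.6, 41.7, 33.5 and 25.4 CPM in 1F, 8F, 11F and 18F, with 8F above 1F. The further interferon-gamma targets summed to 238.9, 214.8, 183.7 and 139.1 CPM in these libraries, the order of the summed Kupffer cell markers. On the scale of median deviation, the Kupffer cell markers had 2.05, 1.02, 1.15 and 0.70 and the further interferon-gamma targets 0.17, 0.78, 0.56 and -0.01 in the same libraries. The median deviation of the MHC class I genes was 0.48 in 11F, 0.40 in 1F, 0.18 in 18F and 0.12 in 8F. The 10 acute phase genes, hepatocyte products of inflammation, summed to 11180 to 13037 CPM in Sham-WM and to 70418, 48966, 57499 and 18673 CPM in 1F, 8F, 11F and 18F. Of them 8 were higher in VSG than in Sham-WM, 80% against 15.0% of all genes. In Sham-Ad lib, 4F and 10F had 30987 and 39040 CPM, and 4F had the highest value of its group for 29 of the 49 members. Stellate cell markers were lower in 3 of 6 and hepatocyte markers in 2 of 6, Alb and Cps1, in VSG than in Sham-WM, when 11.9% of all genes were lower. Whether the members follow any of these lists was not tested.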

How the data were processed

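Liver poly(A) RNA of 12 mice, 4 per group, was sequenced as directional paired libraries. Per the submitters' processing notes and the methods of the study, the authors aligned reads to mm10 with TopHat2 2.1.1 and counted them per gene with featureCounts. The deposited values are raw counts, 1 column per library, and all 12 columns were used. The annotation release and the strand setting of the counting are not given in the sources used here. Symbols came from GENCODE. Members and lists were chosen with earlier results of these data known.

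Genes were kept by filterByExpr (minimum count 10, minimum total 15), scaled by TMM and fitted over the 12 libraries with edgeR 4.0.16 (R 4.3.3), with quasi-likelihood tests in 3 contrasts, Benjamini-Hochberg adjustment over all genes tested and calls at 0.05. P-values rest on the spread between mice within groups of 4, pooled over the 3 groups and moderated across genes. CPM are counts scaled by TMM. The methods of the study removed unwanted variation (RUVSeq, 2 factors) without naming the variant. Here 2 factors were computed after the RUVs and RUVr approaches, over all genes tested and without that package. Further alternatives were DESeq2 1.42.0, other scalings and filters, groups taken from the conflicting label, and fits without 1 library at a time. Genes given with library values were 11 set by name and, per role, up to 4 called members by smallest adjusted p, or the member furthest from 0 against Sham-WM. The test was checked on simulated data. Floors (3 counts) cover counting error only. The values of 1 signalling gene of the further lists are not reported here.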

Additional observations from a re-analysis of the deposited data

Results flagged for a closer look

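In groups of 4 libraries, a value was taken as standing apart where its gap to the nearest library, divided by the range of the group, exceeded Dixon's 95% critical value for 4 values. Of 147 combinations of member and group, 7 did so, and chance alone gives about 7.35. In Sham-Ad lib, library 4F was high for Mx2 (5.21 CPM against 3.18 in the next), Trim30a (12 against 6) and Oas2 (4.67 against 1.84), and library 3F was low for Irf1 (22.3 against 30.2). In VSG, library 18F was low for Dhx58 (9.56 against 12.6) and Zbp1 (5.97 against 13.3), and library 11F was high for Ifi27 (112.5 against 62.6).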

How the results depend on the processing

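No paired analysis was possible because no animal number is shared between groups. Members called in VSG against Sham-WM (23) numbered 2 with 2 RUVs factors, 0 with groups taken from the conflicting label, and 11 to 25 leaving out 1 library, with 14 without 15F and 11 without 16F. Members called in VSG against Sham-Ad lib (0) numbered 4 with DESeq2, 14 with 2 RUVr factors, and 0 to 6 leaving out 1 library (6 without 4F, 3 without 18F). The shares of all genes called were then 8.42% with DESeq2, 23.1% with RUVr, 6.82% without 4F and 8.2% without 18F. Members called in Sham-WM against Sham-Ad lib (3) numbered 5 with DESeq2, 7 when only the 2 groups were fitted, 9 with RUVs, 12 with RUVr, 0 by the conflicting label, and 1 to 6 leaving out 1 library (1 without 10F, 15F, 2F or 9F, and 6 without 11F). The shares of all genes called were then 9.94% with DESeq2, 11.1% with only the 2 groups, 13.2% with RUVs and 16.8% with RUVr. Without 11F the share was 9.89%. The further pathway genes called in VSG against Sham-Ad lib (2) numbered 18 with DESeq2, 1 with upper quartile factors, 12 without a filter, 0 with at least 10 counts in every library, 0 when only the 2 groups were fitted, 0 by the conflicting label, 0 with RUVs, 48 with RUVr, and 0 to 25 leaving out 1 library. Over all genes the shares were 8.42% with DESeq2, 0.613% with upper quartile factors, 2.72% without a filter and 23.1% with RUVr. In Sham-WM against Sham-Ad lib (7) the further genes numbered 0 by the conflicting label, 13 with RUVs (13.2% of all genes), 22 with RUVr (16.8% of all genes), and 4 to 11 leaving out 1 library. In VSG against Sham-WM (45) they numbered 0 by the conflicting label, 5 with RUVs, and 27 to 50 leaving out 1 library (27 without 16F), when 3.97% of all genes were called with RUVs and 16.5% without 16F. Median log2 fold changes in VSG against Sham-Ad lib were -0.06 (type I) and -0.01 (interferon-gamma and MHC class I) by the conflicting label, and 0.07 and -0.00 with RUVs. In VSG against Sham-WM they were -0.01 and 0.03 by that label, and 0.19 and 0.16 with RUVs. The type I median in Sham-WM against Sham-Ad lib was -0.35 to -0.07 leaving out 1 library, with -0.07 without 4F. By the conflicting label, no gene in the table was called, and the VSG against Sham-WM values were -0.28 for Ifit3, -0.04 for Trim30a, -0.02 for Oas1a, -0.20 for Oasl2, -0.35 for Irf1 and -0.05 for Tap1, while Tap1 was 0.14 in Sham-WM against Sham-Ad lib. With RUVs, Oas1g was -0.07 in VSG against Sham-WM. The cause of these changes was not tested. DESeq2's size factors in edgeR gave the same counts of members called. Low counts limit Oas1g, Oas3 and Mx1.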
